A study of Mus musculus with 28 samples.

Results

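Meiocyte-like cells made from short-telomere embryonic stem cells (ST-1dMeioLC) were compared with meiocyte-like cells made from primordial germ cells of the embryo (PGC-1dMeioLC), with 2 libraries in each group. The genes compared were the 17086 of 53564 symbols that reached at least 1 TPM (transcripts per 1000000) in at least 2 of these 4 libraries. Just inside that limit lay Gm2832, with 1.25 and 1.00 TPM in ST-1dMeioLC, against 0.653 and 0.782 TPM in PGC-1dMeioLC. Just outside it lay 4933428P19Rik, with 0.320 and 0.213 TPM in ST-1dMeioLC, against 1.34 and 0.9998 TPM in PGC-1dMeioLC. Of the 17086 genes, 13540 had at least 1 TPM in all 4 libraries, 986 reached it in both ST-1dMeioLC libraries and in neither PGC-1dMeioLC library, and 949 did so the other way round.

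The series followed mouse cells (strain C57BL6) by RNA sequencing as they were taken from stem cells through a primordial germ cell state to the entry into meiosis, to ask how telomere length bears on that path. ST cells came from generation 4 of a knockout of Terc, the RNA template of telomerase. They were grown for 2 days as epiblast-like cells and for 4 days with BMP4, SCF, EGF and LIF to give primordial germ cell-like cells. Primordial germ cells (PGCs) were dissected at E10.5 from embryonic gonads and sorted with antibodies to CD61 and SSEA1. Both kinds of cell were then aggregated for 1 day with GFP-carrying somatic cells of female E12.5 gonads with retinoic acid at 3 µM, and cells without GFP were then sorted. LT-1dMeioLC (wild-type stem cells) and RT-1dMeioLC (stem cells with Terc rescued) went through the same steps as ST-1dMeioLC and are given beside it. ST-1dMeioLC and PGC-1dMeioLC differ in Terc genotype and also in origin, culture in one case and the embryo in the other, and the effects of these cannot be told apart. The labels do not say that the 2 libraries of a group came from separate cultures or litters. The p-values measure the spread between libraries of a group, pooled over all 16 libraries fitted, and that spread may be technical.

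PGCs are the embryonic founders of eggs and sperm. On reaching the gonad they switch on a late germ cell program, with the RNA-binding proteins DAZL and DDX4 and the piRNA machinery that silences transposons. In the presence of retinoic acid and BMP, STRA8 and its partners then start meiotic transcription, and the synaptonemal complex, meiotic cohesins and recombination proteins follow. Antiviral genes of the interferon response and major histocompatibility complex (MHC) class I genes are a separate program, which type I interferons switch on through their receptor.

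Late germ cell and synaptonemal genes were lower in ST-1dMeioLC than in PGC-1dMeioLC, while interferon response and MHC class I genes were higher, and so were Nanog, Nodal, Lefty1 and other pluripotency genes. Macrophage markers were lower in ST-1dMeioLC, while the summed erythroid markers were higher. None of 30 proliferation genes passed both the adjusted p and the size required for a call. A gene was called when its adjusted p was under 0.05 and it differed by at least 1 on the scale of log2(TPM + 1), that is 2-fold in TPM + 1, and log2 changes below are ST-1dMeioLC minus PGC-1dMeioLC on that scale, which understates changes of low genes. Among all 21935 genes tested, 1644 were called higher (7.49%) and 1312 lower (5.98%), with a median log2 change of 0.00. The compared genes held 1560 of the higher calls and 1217 of the lower calls, of which 353 and 310 were past 4-fold. These 7.49% and 5.98% are the shares against which each count below is read.

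**Figure D1:**
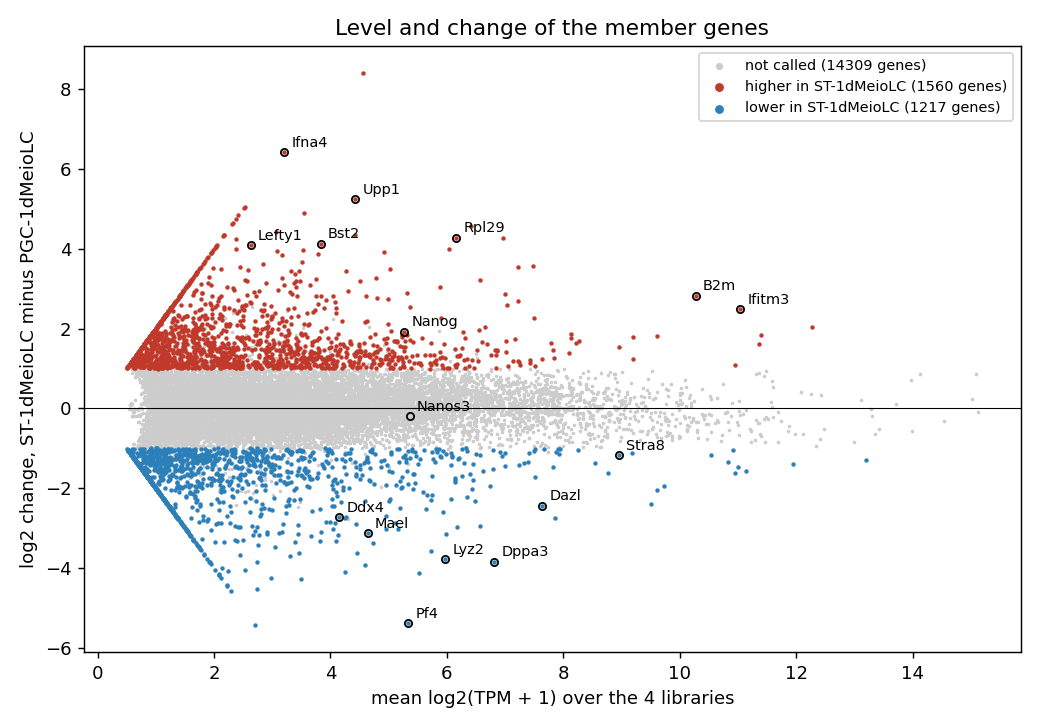
Each point is 1 of the 17086 genes, with its mean log2(TPM + 1) over the 4 libraries on the x axis and its log2 change, ST-1dMeioLC minus PGC-1dMeioLC, on the y axis. The 1560 genes called higher are red, the 1217 called lower are blue, and the straight outer edges are formed by genes listed at 0 in both libraries of a group.

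Library facts that touch these results are few. The 2 libraries of a group correlated at r = 0.972 in ST-1dMeioLC and 0.977 in PGC-1dMeioLC on the log2(TPM + 1) scale, across genes. Nuclear protein-coding genes took 56.7% to 56.8% of TPM in ST-1dMeioLC and 54.4% in PGC-1dMeioLC, and mitochondrially encoded genes took at most 10.52% in ST-1dMeioLC and 14.8% to 14.9% in PGC-1dMeioLC. Terc, the knocked-out gene, was listed at 0 in each ST-1dMeioLC library and in each PGC-1dMeioLC library, so it does not tell these groups apart. It had 2.35 and 5.39 TPM in LT-1dMeioLC. Tert, the protein subunit of telomerase, had 2.30 and 2.25 TPM in ST-1dMeioLC, against 0.681 and 1.24 TPM in PGC-1dMeioLC (log2 change 0.76, SE 0.16, adjusted p 0.0037). Tert was not called on this scale and was called at a pseudocount of 0.1 (log2 change 1.22, adjusted p 0.0078).

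Markers of the cell types the sort could hold were read first. The summed level of 14 germ cell markers was 302 and 309 TPM in ST-1dMeioLC, against 1452 and 1485 TPM in PGC-1dMeioLC. Of these 14 genes, 9 were called lower and 0 higher. The 5 not called were Nanos3, Prdm1, Tfap2c, Kit and Pou5f1, of which Pou5f1 was the only member with a higher level in ST-1dMeioLC. Dppa3, Dazl and Sycp3, whose levels are given below, held most of the PGC-1dMeioLC sum, so the sum follows a few genes. None of the 14 was listed at 0 in either group. In bulk samples fewer cells of a type and less RNA per cell cannot be told apart. Markers of the somatic gonad summed to 348 and 339 TPM in ST-1dMeioLC and to 270.2 and 269 TPM in PGC-1dMeioLC. They summed to 41.5 and 42.2 TPM in E10.5 PGCs that were never in the culture. ST cells at day 1 of the induction toward primordial germ cell-like cells (ST-1dEB), also not in that culture, had 94.8 and 91.9 TPM. Both 1dMeioLC groups held RNA of genes that mark the somatic gonad. Among them was Wt1, a transcription factor of the gonadal ridge, with 64.7 and 60.9 TPM in ST-1dMeioLC, against 33.9 and 34.4 TPM in PGC-1dMeioLC. Of 20 such markers 18 were tested, 2 were called higher (Upk3b and Krt19, both epithelial) and 3 lower (Fst, Bmp2 and Rspo1, secreted regulators of the early ovary), while Amh and Cyp17a1 were listed at 0 in all 4 libraries. The higher count was 1 without PGC-1dMeioLC replicate 2 and 3 without ST-1dMeioLC replicate 2 or PGC-1dMeioLC replicate 1, and Krt19 (log2 change 1.05) was no longer called without ST-1dMeioLC replicate 1 or PGC-1dMeioLC replicate 2.

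Stromal markers summed to 932 and 951 TPM in ST-1dMeioLC and 900.5 and 901 TPM in PGC-1dMeioLC, with 3 of 22 called lower and 0 higher; the lower count was 6 without ST-1dMeioLC replicate 2 and 2 without PGC-1dMeioLC replicate 1. Endothelial markers were low in both groups, at 14.2 and 13.9 TPM in ST-1dMeioLC and 24.3 and 25.7 TPM in PGC-1dMeioLC, with 1 of 9 tested called lower (Cdh5, listed at 0 in ST-1dMeioLC), a count of 2 without ST-1dMeioLC replicate 2 or either PGC-1dMeioLC library and of 5 at a pseudocount of 0.1. Of the 12 endothelial markers 5 were listed at 0 in each ST-1dMeioLC library (Cdh5, Emcn, Erg, Sox18 and Cldn5) and 0 in PGC-1dMeioLC. The 11 macrophage markers summed to 90.8 and 85.95 TPM in ST-1dMeioLC, against 678 and 671 TPM in PGC-1dMeioLC. They summed to 297 and 287 TPM in LT-1dMeioLC, 308 and 301 TPM in RT-1dMeioLC and 32.97 and 35.5 TPM in E10.5 PGCs. Of these 11 genes 9 were called lower, and 1 was listed at 0 in each ST-1dMeioLC library (Cx3cr1 in replicate 1 and Spi1 in replicate 2). The 6 erythroid markers summed to 1550.2 and 1542 TPM in ST-1dMeioLC and 432 and 443 TPM in PGC-1dMeioLC. Over all 17 macrophage and blood markers, 4 were called higher and 9 lower. What part these markers have in the results below was not tested.

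**Figure D2:**
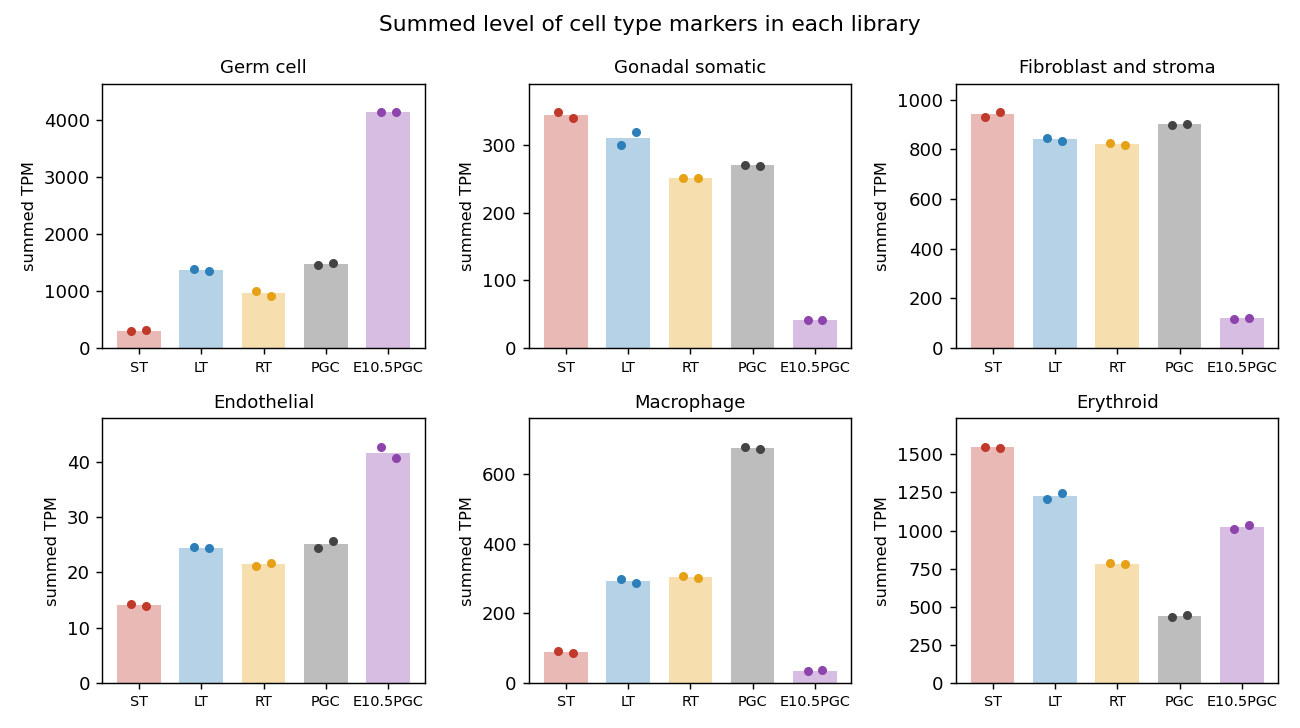
Summed TPM of each marker list (y axis, from 0) in the 1dMeioLC libraries of ST, LT, RT and PGC origin and in E10.5PGC (x axis); points are libraries and bars are means of 2. The 2 ST libraries have the lowest germ cell sum of the 4 kinds of 1dMeioLC (302 and 309 TPM), and the 2 PGC libraries the highest macrophage sum (678 and 671 TPM).

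Promoters of a few genes from the late germ cell, synapsis and interferon response lists are shown as examples. Each promoter shown holds the sequences marked in it, while only part of each list does, so they are not typical of the lists. The sequences are RefSeq's on GRCm38.p6, from 250 bases before to 50 bases after the annotated start, 5′ to 3′ on the gene's strand. In the first 3, of Ddx4 (chr13:112652261-112652560, minus strand), Mael (chr1:166238695-166238994, minus strand) and Sycp3 (chr10:88459337-88459636, plus strand), capitals mark the E-box CACGTG and the sequence TCCCGC on either strand (GCGGGA on the other). E-boxes of this kind are bound by MGA with MAX, which in mouse stem cells keep meiotic genes silent, and TCCCGC is the core of E2F6 sites in germline promoters.
Ddx4: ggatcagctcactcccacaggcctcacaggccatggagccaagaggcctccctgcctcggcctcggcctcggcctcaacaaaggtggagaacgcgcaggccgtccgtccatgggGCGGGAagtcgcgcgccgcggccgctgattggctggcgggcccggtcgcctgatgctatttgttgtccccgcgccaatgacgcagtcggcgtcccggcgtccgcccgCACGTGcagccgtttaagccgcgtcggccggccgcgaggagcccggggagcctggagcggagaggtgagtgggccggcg
Mael: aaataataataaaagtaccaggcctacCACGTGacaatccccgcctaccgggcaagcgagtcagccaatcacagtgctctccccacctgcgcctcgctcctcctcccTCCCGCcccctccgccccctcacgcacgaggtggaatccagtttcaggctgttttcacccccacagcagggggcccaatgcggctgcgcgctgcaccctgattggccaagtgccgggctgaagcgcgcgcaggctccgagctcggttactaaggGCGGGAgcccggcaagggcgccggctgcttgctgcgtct
Sycp3: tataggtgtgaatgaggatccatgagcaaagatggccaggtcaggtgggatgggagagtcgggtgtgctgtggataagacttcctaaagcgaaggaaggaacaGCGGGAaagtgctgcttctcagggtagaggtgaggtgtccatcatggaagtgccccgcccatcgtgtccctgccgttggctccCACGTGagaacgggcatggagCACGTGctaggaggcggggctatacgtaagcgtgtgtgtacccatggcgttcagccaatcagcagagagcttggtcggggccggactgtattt
CACGTG occurred in 11 of the 27 late germ cell genes that matched a promoter (40.7%) and in 7 of 15 genes of synapsis, cohesion and axis (46.7%), against 8.09% of all 27025 genes with such a promoter. TCCCGC occurred in 8 of 27 (29.6%) and 9 of 15 of these lists, against 22.1% of all. Among MHC class I presentation genes, a list that was higher in ST-1dMeioLC, CACGTG occurred in 3 of 14 (21.4%) and TCCCGC in 4 of 14 (28.6%). Among interferon response genes CACGTG occurred in 0 of 18 and TCCCGC in 2 of 18 (11.1%). A match is a description of the letters and not of a bound site.

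In the promoters of Ifit1 (chr19:34640639-34640938, plus strand), Bst2 (chr8:71537423-71537722, minus strand) and Oas1a (chr5:120907476-120907775, minus strand), capitals mark the core of the interferon-stimulated response element, searched on both strands as GAAA, any 2 bases and GAAA (TTTC, any 2 bases and TTTC on the other strand). In Bst2 and in Oas1a the 2 matches overlap and form 1 run of capitals.
Ifit1: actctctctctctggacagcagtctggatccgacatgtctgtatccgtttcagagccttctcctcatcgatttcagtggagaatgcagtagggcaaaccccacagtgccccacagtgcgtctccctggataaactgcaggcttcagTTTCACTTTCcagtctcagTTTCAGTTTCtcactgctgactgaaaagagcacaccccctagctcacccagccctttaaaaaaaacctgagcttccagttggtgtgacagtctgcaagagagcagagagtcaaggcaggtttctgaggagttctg
Bst2: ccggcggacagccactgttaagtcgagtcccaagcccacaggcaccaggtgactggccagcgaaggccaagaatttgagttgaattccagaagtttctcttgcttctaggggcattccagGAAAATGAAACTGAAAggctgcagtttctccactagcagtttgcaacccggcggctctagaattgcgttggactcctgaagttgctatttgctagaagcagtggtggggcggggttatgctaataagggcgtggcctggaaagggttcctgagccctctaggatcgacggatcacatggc
Oas1a: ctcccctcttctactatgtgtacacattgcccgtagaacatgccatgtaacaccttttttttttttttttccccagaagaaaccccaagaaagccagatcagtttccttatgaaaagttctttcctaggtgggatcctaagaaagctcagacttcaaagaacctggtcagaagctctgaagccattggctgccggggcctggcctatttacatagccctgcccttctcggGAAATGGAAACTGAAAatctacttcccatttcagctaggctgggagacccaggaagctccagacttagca
This core occurred in 11 of the 18 interferon response genes that matched a promoter (61.1%) and in 3 of 14 MHC class I presentation genes (21.4%). The share over all 27025 genes was 3.99%, and 2 of 27 late germ cell genes held it.

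The early PGC list did not move as 1 block. Of its 21 genes, all tested, 7 were called lower, 2 higher and 12 were not called, with a median log2 change of -0.46. The higher count was 4 without ST-1dMeioLC replicate 1. Dppa3 (Stella, which guards the early genome against loss of methylation; chr6:122626410-122630272, plus strand, GENCODE M21 on mm10) had 27.6 and 29.6 TPM in ST-1dMeioLC, against 423 and 425 TPM in PGC-1dMeioLC (log2 change -3.84, SE 0.07, adjusted p 4.3e-10). Its ST-1dMeioLC libraries lay far below every other 1dMeioLC library, with 524 and 495 TPM in LT-1dMeioLC and 347 and 321 TPM in RT-1dMeioLC. The X-linked reproductive homeobox genes Rhox9, Rhox6 and Rhox5 fell as well. Rhox5 had 99.1 and 79.01 TPM in ST-1dMeioLC, against 613 and 581 TPM in PGC-1dMeioLC (log2 change -2.74, adjusted p 1.1e-08), and Rhox9 had 7.42 and 7.08 TPM in ST-1dMeioLC, against 85.4 and 83.8 TPM in PGC-1dMeioLC (log2 change -3.38, adjusted p 4.8e-08). Rhox genes are close copies of one another, so reads may be split among them.

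The factors that specify PGCs were within 2-fold in the 2 groups. Nanos3, which keeps PGCs alive, had 38.1 and 36.8 TPM in ST-1dMeioLC, against 40.8 and 45.4 TPM in PGC-1dMeioLC (log2 change -0.20, adjusted p 0.4), so its groups did not overlap but differed by little. Prdm1 (BLIMP1), the repressor that opens PGC fate, had 2.92 and 3.10 TPM in ST-1dMeioLC, against 4.12 and 3.86 TPM in PGC-1dMeioLC (log2 change -0.32), and Tfap2c, which acts with it, had 6.81 and 4.63 TPM in ST-1dMeioLC, against 11.4 and 9.91 TPM in PGC-1dMeioLC (log2 change -0.81). Tfap2c was within 2-fold with all libraries and passed it without ST-1dMeioLC replicate 1 (log2 change -1.05). Prdm14, the third of these factors, was higher by less than 2-fold, with 8.75 and 9.84 TPM in ST-1dMeioLC, against 5.29 and 4.83 TPM in PGC-1dMeioLC (log2 change 0.76). Kit, the receptor for SCF, had 8.69 and 9.32 TPM in ST-1dMeioLC, against 15.3 and 16.4 TPM in PGC-1dMeioLC (log2 change -0.75). The 2 members that rose were Nanog, given with the pluripotency genes, and Ifitm3, a PGC surface gene that interferon also induces, at 5008 and 4988 TPM in ST-1dMeioLC, against 880.5 and 901 TPM in PGC-1dMeioLC (log2 change 2.49, adjusted p 1.3e-11). Its neighbour Ifitm1 had 793 and 843 TPM in ST-1dMeioLC, against 876 and 894 TPM in PGC-1dMeioLC and was not called.

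Late germ cell genes were lower almost throughout. Of 30 genes on the list 24 were tested, and 19 of these were called lower and 0 higher, with a median log2 change of -1.70. Leaving out any 1 of the 4 libraries gave 17 to 19 lower calls. Dazl, a translational regulator that licenses germ cells for meiosis, had 80.6 and 87.98 TPM in ST-1dMeioLC, against 454 and 469 TPM in PGC-1dMeioLC (log2 change -2.44, SE 0.09, adjusted p 2.7e-08). Ddx4 (the RNA helicase VASA; chr13:112598333-112652475, minus strand) had 5.98 and 5.84 TPM in ST-1dMeioLC, against 44.7 and 44.9 TPM in PGC-1dMeioLC (log2 change -2.73, adjusted p 2.5e-06). Both genes were several-fold lower in each ST-1dMeioLC library than in each PGC-1dMeioLC library. Among piRNA pathway genes, Mael had 7.36 and 7.45 TPM in ST-1dMeioLC, against 72.8 and 72.6 TPM in PGC-1dMeioLC (log2 change -3.13). Mov10l1, a helicase of piRNA biogenesis, had 1.26 and 1.89 TPM in ST-1dMeioLC, against 21.2 and 20.6 TPM in PGC-1dMeioLC (log2 change -3.10, adjusted p 1.6e-07). Slc25a31, a germline ADP/ATP carrier, had 8.89 and 15.4 TPM in ST-1dMeioLC, against 90.8 and 95.4 TPM in PGC-1dMeioLC (log2 change -2.88). The 5 tested genes that were not called included Figla, an oocyte transcription factor, at 3.16 and 5.27 TPM in ST-1dMeioLC, against 2.20 and 3.57 TPM in PGC-1dMeioLC, and Tdrd7, at 3.56 and 3.19 TPM in ST-1dMeioLC, against 2.90 and 4.29 TPM in PGC-1dMeioLC.

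**Figure D3:**
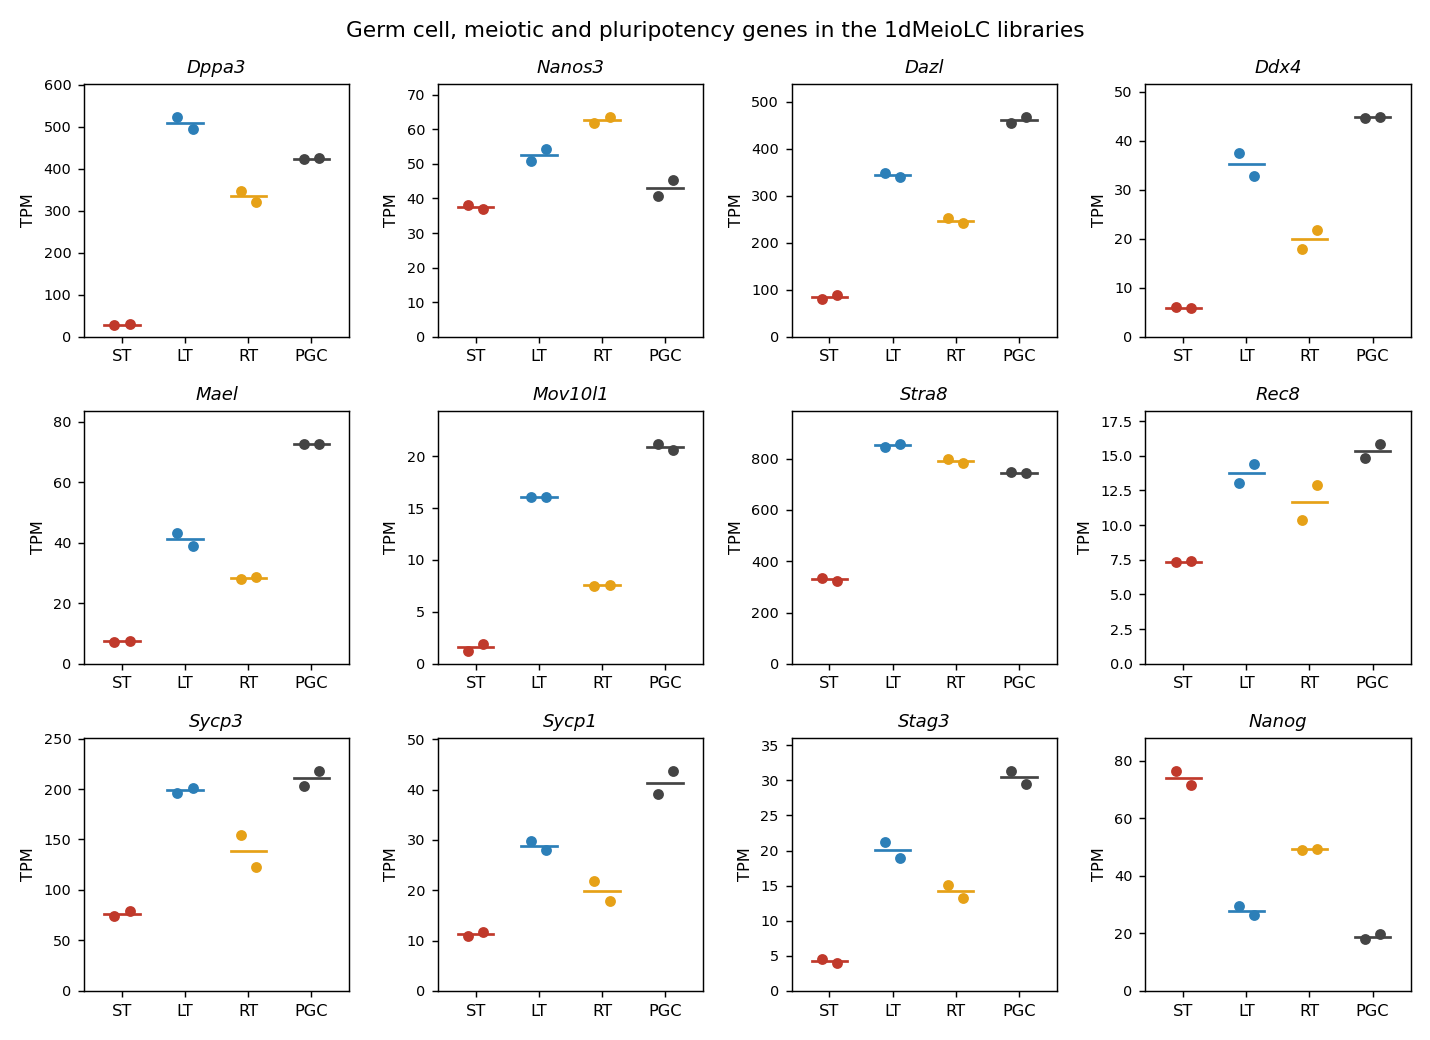
TPM (y axes, from 0, each gene on its own scale) in the 2 ST, LT, RT and PGC 1dMeioLC libraries (x axes); points are libraries and lines are means of 2. Dppa3, Dazl, Ddx4, Mael, Mov10l1, Sycp1, Sycp3 and Stag3 are lowest in both ST libraries, Nanos3 lies close in ST and PGC, and Nanog is highest in ST.

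Regulators of meiotic entry showed smaller differences. Of 13 genes 12 were tested, and 4 were called lower and 0 higher, with a median log2 change of -0.64. Stra8, the retinoic acid target that starts the meiotic program, had 336 and 323 TPM in ST-1dMeioLC, against 747 and 744 TPM in PGC-1dMeioLC (log2 change -1.17, SE 0.17, adjusted p 0.0004). It was near 1 TPM in uncultured E10.5 PGCs (0.813 and 1.03 TPM), so both cultured groups stood far above that level. Meioc, which stabilises meiotic transcripts, had 9.43 and 8.07 TPM in ST-1dMeioLC, against 25.1 and 22.999 TPM in PGC-1dMeioLC (log2 change -1.36), and Zglp1, the BMP-driven factor of oogenic fate, had 6.87 and 3.51 TPM in ST-1dMeioLC, against 16.7 and 12.01 TPM in PGC-1dMeioLC (log2 change -1.35). The Zglp1 call was lost without ST-1dMeioLC replicate 2 (log2 change -0.95). Rec8, a meiotic cohesin that retinoic acid induces, had 7.34 and 7.40 TPM in ST-1dMeioLC, against 14.9 and 15.9 TPM in PGC-1dMeioLC (log2 change -0.97, adjusted p 0.00013), just short of the size called. It passed that size without PGC-1dMeioLC replicate 1 and after scaling to protein-coding genes (-1.01 in both), and at a pseudocount of 0.1 or after quantile normalization (-1.05 in both). The subunits Mga, Max, E2f6, L3mbtl2 and Pcgf6 of the complex that holds meiotic genes silent in stem cells were not called, and Mga had 6.99 and 8.19 TPM in ST-1dMeioLC, against 10.1 and 10.6 TPM in PGC-1dMeioLC (log2 change -0.41).

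Most chromosome axis and synapsis genes were lower in ST-1dMeioLC. Of 16 genes 15 were tested, and 10 were called lower and 0 higher, with a median log2 change of -1.24 and 7 to 11 lower calls on leaving out 1 library. Stag3, a meiosis-specific cohesin subunit, had 4.60 and 4.04 TPM in ST-1dMeioLC, against 31.3 and 29.5 TPM in PGC-1dMeioLC (log2 change -2.56, SE 0.13, adjusted p 2.7e-07). Smc1b, its partner in the cohesin ring, had 17.8 and 18.1 TPM in ST-1dMeioLC, against 69.9 and 76.4 TPM in PGC-1dMeioLC (log2 change -1.96). The groups did not come near each other for either cohesin. Sycp1, the transverse filament of the synaptonemal complex, had 10.9 and 11.8 TPM in ST-1dMeioLC, against 39.1 and 43.7 TPM in PGC-1dMeioLC (log2 change -1.78), and Sycp3, of its lateral element, had 73.8 and 79.4 TPM in ST-1dMeioLC, against 203 and 218 TPM in PGC-1dMeioLC (log2 change -1.45, adjusted p 0.00022). Hormad2, which marks unsynapsed axes, had 2.09 and 2.47 TPM in ST-1dMeioLC, against 8.82 and 9.56 TPM in PGC-1dMeioLC (log2 change -1.64).

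Some recombination genes were lower in ST-1dMeioLC. Of 24 genes 22 were tested, and 6 were called lower and 0 higher, with a median log2 change of -0.37. Tex15, which loads recombinases at breaks, had 6.67 and 6.37 TPM in ST-1dMeioLC, against 24.7 and 23.2 TPM in PGC-1dMeioLC (log2 change -1.73). The X-linked crossover gene Tex11 had 5.46 and 6.32 TPM in ST-1dMeioLC, against 18.95 and 19.04 TPM in PGC-1dMeioLC (log2 change -1.54). Meiob, a single-strand DNA-binding protein, had 0.258 and 3.27 TPM in ST-1dMeioLC, against 9.85 and 9.29 TPM in PGC-1dMeioLC (log2 change -2.19, adjusted p 0.0035), and its 2 ST-1dMeioLC libraries differed widely. The Meiob call was lost at a pseudocount of 0.1 (adjusted p 0.052) and in a fit of the 4 libraries alone (adjusted p 0.071). Spo11, the enzyme that makes the breaks, was under the filter, with 0.449 and 0.524 TPM in ST-1dMeioLC, against 1.35 and 0.760 TPM in PGC-1dMeioLC.

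Interferon response genes were higher in ST-1dMeioLC with few exceptions. All 26 genes of the list were tested, and 22 were called higher and 0 lower, with a median log2 change of 2.12 (1.99 without Isg15, which was listed at 0 in PGC-1dMeioLC). Leaving out 1 library gave 21 to 22 higher calls. Bst2 (tetherin, which holds budding virus at the cell surface; chr8:71534255-71537456, minus strand) had 57.95 and 59.2 TPM in ST-1dMeioLC, against 2.29 and 2.54 TPM in PGC-1dMeioLC (log2 change 4.13, SE 0.09, adjusted p 1.4e-09). Oas1a, a sensor of double-stranded RNA, had 34.5 and 31.6 TPM in ST-1dMeioLC, against 2.07 and 0.851 TPM in PGC-1dMeioLC (log2 change 3.84), and Ifit1, which binds viral RNA, had 63.1 and 62.1 TPM in ST-1dMeioLC, against 4.67 and 5.09 TPM in PGC-1dMeioLC (log2 change 3.44). Isg15, a ubiquitin-like modifier, had 12.8 and 8.93 TPM in ST-1dMeioLC and was listed at 0 in each PGC-1dMeioLC library (adjusted p 2.1e-07). Rtp4 had 106 and 109.6 TPM in ST-1dMeioLC, against 8.41 and 8.82 TPM in PGC-1dMeioLC (log2 change 3.50). For these genes each ST-1dMeioLC library was far above each PGC-1dMeioLC library. Mx1, an antiviral GTPase, and the RNA helicase Dhx58 were not called and were the only members with a negative log2 change. At a pseudocount of 0.1, 2 members of the list were called lower. Mx1 had 0.121 and 0.161 TPM in ST-1dMeioLC, against 1.13 and 0.818 TPM in PGC-1dMeioLC. Dhx58 had 0.134 and 0.269 TPM in ST-1dMeioLC, against 0.983 and 0.771 TPM in PGC-1dMeioLC.

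The genes for MHC class I presentation followed the same direction. Of 16 genes, all tested, 12 were called higher and 0 lower, with a median log2 change of 2.04. B2m, the light chain of class I molecules, had 3279.7 and 3319 TPM in ST-1dMeioLC, against 472 and 456 TPM in PGC-1dMeioLC (log2 change 2.83, SE 0.06, adjusted p 1.4e-09), while E10.5 PGCs had 16.6 and 19.2 TPM. H2-D1, a heavy chain, had 514 and 509 TPM in ST-1dMeioLC, against 41.1 and 44.2 TPM in PGC-1dMeioLC (log2 change 3.55), and Psmb8, a subunit of the immunoproteasome, had 49.02 and 40.5 TPM in ST-1dMeioLC, against 1.93 and 1.93 TPM in PGC-1dMeioLC (log2 change 3.96). H2 heavy chain genes are near copies of each other, so their separate levels are uncertain. Macrophages express both lists too, and their summed markers were 90.8 and 85.95 TPM in ST-1dMeioLC and 678 and 671 TPM in PGC-1dMeioLC. The summed somatic gonad markers were 348 and 339 TPM in ST-1dMeioLC and 270.2 and 269 TPM in PGC-1dMeioLC. Gene by gene they were mixed, with 2 of 18 tested called higher and 3 lower. They summed to 299.7 and 318.9 TPM in LT-1dMeioLC and to 250.6 and 251.6 TPM in RT-1dMeioLC. What part either cell type has in these lists was not tested.

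Ifna4 (chr4:88841861-88842421, plus strand) had 86.2 and 83.2 TPM in ST-1dMeioLC and was listed at 0 in each PGC-1dMeioLC library (adjusted p 1.4e-09). Ifna2 had 31.1 and 32.4 TPM in ST-1dMeioLC and was likewise listed at 0 in PGC-1dMeioLC (adjusted p 2.6e-09). In LT-1dMeioLC the same genes had 1.33 and 2.32 TPM (Ifna4) and were listed at 0 (Ifna2), and both were listed at 0 in RT-1dMeioLC. Chosen after their values were seen, Ifna6 had 2.31 and 1.03 TPM in ST-1dMeioLC and was listed at 0 in PGC-1dMeioLC, and Ifnb1 was listed at 0 in all 4 libraries. Interferon alpha genes are near copies of each other, so the split of reads among them is uncertain. The receptor gene Ifnar1 had 16.4 and 13.98 TPM in ST-1dMeioLC, against 15.1 and 13.9 TPM in PGC-1dMeioLC.

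**Figure D4:**
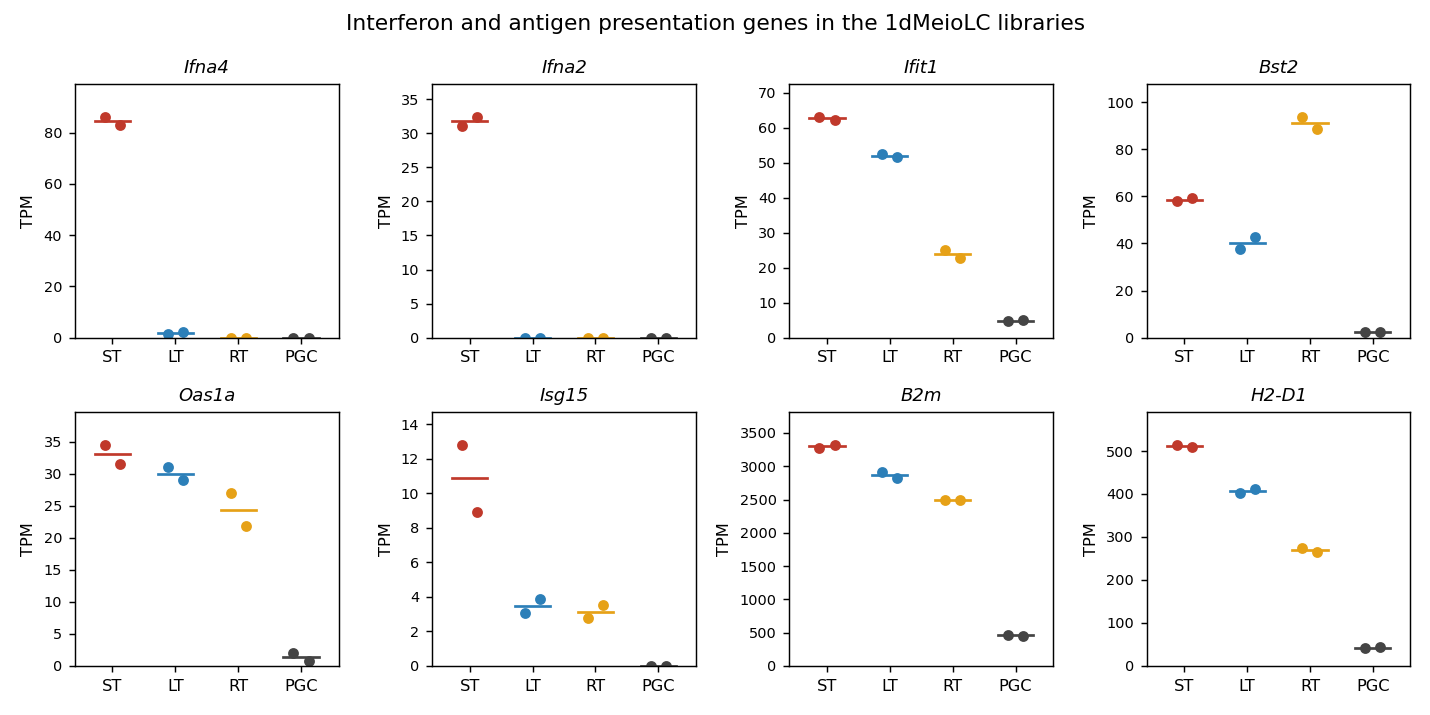
TPM (y axes, from 0, each gene on its own scale) in the 2 ST, LT, RT and PGC 1dMeioLC libraries (x axes); points are libraries and lines are means of 2. Ifit1, Bst2, Oas1a, B2m and H2-D1 are lower in both PGC libraries than in every other library shown, and Ifna4 and Ifna2 stand out in the ST libraries (86.2 and 83.2 TPM for Ifna4).

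Genes of pluripotency were higher in ST-1dMeioLC in part. Of 15 naive pluripotency genes, all tested, 7 were called higher and 1 lower (2 lower without ST-1dMeioLC replicate 1), with a median log2 change of 0.90. Nanog, a core factor of stem cells and PGCs, had 76.5 and 71.6 TPM in ST-1dMeioLC, against 17.9 and 19.7 TPM in PGC-1dMeioLC (log2 change 1.92, SE 0.10, adjusted p 3.4e-07). Fgf4, a growth factor of the epiblast, had 12.9 and 12.1 TPM in ST-1dMeioLC, against 1.44 and 1.44 TPM in PGC-1dMeioLC (log2 change 2.47), and Dppa5a, an RNA-binding protein of stem cells, had 10162 and 9874 TPM in ST-1dMeioLC, against 2381 and 2484 TPM in PGC-1dMeioLC (log2 change 2.04). None of these groups overlapped. The lower member was Dppa4, with 29.2 and 24.7 TPM in ST-1dMeioLC, against 57.3 and 56.8 TPM in PGC-1dMeioLC (log2 change -1.06, and -0.94 without ST-1dMeioLC replicate 2, which ends the call), whereas its partner Dppa2 had 82.8 and 89.2 TPM in ST-1dMeioLC, against 24.4 and 25.2 TPM in PGC-1dMeioLC (log2 change 1.75). Pou5f1 (OCT4) had 5.09 and 7.05 TPM in ST-1dMeioLC, against 2.35 and 2.96 TPM in PGC-1dMeioLC (log2 change 0.94, adjusted p 0.0017) and was just short of the size called. It passed that size without ST-1dMeioLC replicate 1 (1.14), without PGC-1dMeioLC replicate 2 (1.06) and at a pseudocount of 0.1 (1.154).

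Of 16 formative and primed genes 15 were tested, and 5 were called higher and 1 lower (2 lower without ST-1dMeioLC replicate 1), with a median log2 change of 0.51. They include the Nodal pathway: Nodal itself had 13.4 and 11.6 TPM in ST-1dMeioLC, against 0.767 and 1.97 TPM in PGC-1dMeioLC (log2 change 2.56), and its feedback inhibitor Lefty1 had 25.5 and 23.9 TPM in ST-1dMeioLC, against 0.261 and 0.783 TPM in PGC-1dMeioLC (log2 change 4.10). Lefty2, the second inhibitor, had 2.69 and 3.15 TPM in ST-1dMeioLC and was listed at 0 in PGC-1dMeioLC. The lower member was Sox3, with 0.213 and 0.142 TPM in ST-1dMeioLC, against 2.22 and 3.44 TPM in PGC-1dMeioLC.

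Responses to the signals of the culture were mixed. Of 21 retinoic acid response genes, 7 were called higher and 2 lower, with a median log2 change of 0.57. Crabp2, which carries retinoic acid to its receptor, had 142 and 151 TPM in ST-1dMeioLC, against 39.6 and 45.1 TPM in PGC-1dMeioLC (log2 change 1.77), and Crabp1, its relative, was lower, with 11.5 and 6.95 TPM in ST-1dMeioLC, against 37.8 and 40.03 TPM in PGC-1dMeioLC (adjusted p 5.5e-06). Hoxb1, a direct target, had 7.76 and 5.94 TPM in ST-1dMeioLC, against 1.09 and 1.97 TPM in PGC-1dMeioLC (log2 change 1.65). Over all Hox genes, 33 of 39 were tested and 9 were called higher and 0 lower (median 0.66). On the BMP list 5 of 17 were called lower and 0 higher, or 3 lower without PGC-1dMeioLC replicate 1. Its largest changes were in Gata2, a BMP-responsive transcription factor, with 0.652 and 1.36 TPM in ST-1dMeioLC, against 9.06 and 8.96 TPM in PGC-1dMeioLC (log2 change -2.34), and in the ligand Bmp2, with 0.742 and 0.743 TPM in ST-1dMeioLC, against 5.10 and 6.90 TPM in PGC-1dMeioLC (log2 change -1.99). Bmp2 is also among the somatic gonad markers, and its source was not tested.

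Of 27 targets of p53, 5 were called higher and 0 lower, with a median log2 change of 0.40. Phlda3, an inhibitor of AKT, had 30.7 and 34.6 TPM in ST-1dMeioLC, against 8.55 and 7.80 TPM in PGC-1dMeioLC (log2 change 1.88, SE 0.18, adjusted p 2.5e-05). Pmaip1 (NOXA), a pro-apoptotic member of the BCL2 family, had 9.14 and 8.98 TPM in ST-1dMeioLC, against 1.997 and 2.25 TPM in PGC-1dMeioLC (log2 change 1.69). Cdkn1a (p21), the main brake on the cell cycle under p53, had 71.2 and 76.04 TPM in ST-1dMeioLC, against 39.9 and 38.99 TPM in PGC-1dMeioLC (log2 change 0.88, adjusted p 3.1e-06), which is under 2-fold, and Mdm2, the feedback regulator of p53, had 14.1 and 11.8 TPM in ST-1dMeioLC, against 16.4 and 16.1 TPM in PGC-1dMeioLC (log2 change -0.31). Of 30 proliferation genes 0 were called by limma in either direction, while 7 passed on adjusted p alone as higher and 9 as lower. At most 1 was called in each direction on leaving out 1 library. Mki67, a marker of cycling cells, had 14.3 and 14.1 TPM in ST-1dMeioLC, against 14.9 and 15.9 TPM in PGC-1dMeioLC (adjusted p 0.49). Among 25 telomere genes 4 were called higher and 1 lower. The higher ones were Zscan4c, Zscan4d, Zscan4f and Tcstv3, markers of a 2-cell-like state, of which Zscan4d had 5.23 and 5.43 TPM in ST-1dMeioLC and was listed at 0 in PGC-1dMeioLC. Their copies are near-identical. The lower one was Pot1a, a protein of the telomere end, with 1.62 and 1.69 TPM in ST-1dMeioLC, against 5.88 and 5.13 TPM in PGC-1dMeioLC (log2 change -1.29). Against the same PGC-1dMeioLC libraries, 4 genes of this list were called higher in LT-1dMeioLC and 5 in RT-1dMeioLC, with 0 lower in either. Between ST-1dMeioLC and LT-1dMeioLC, 1 was called higher and 1 lower.

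**Figure D5:**
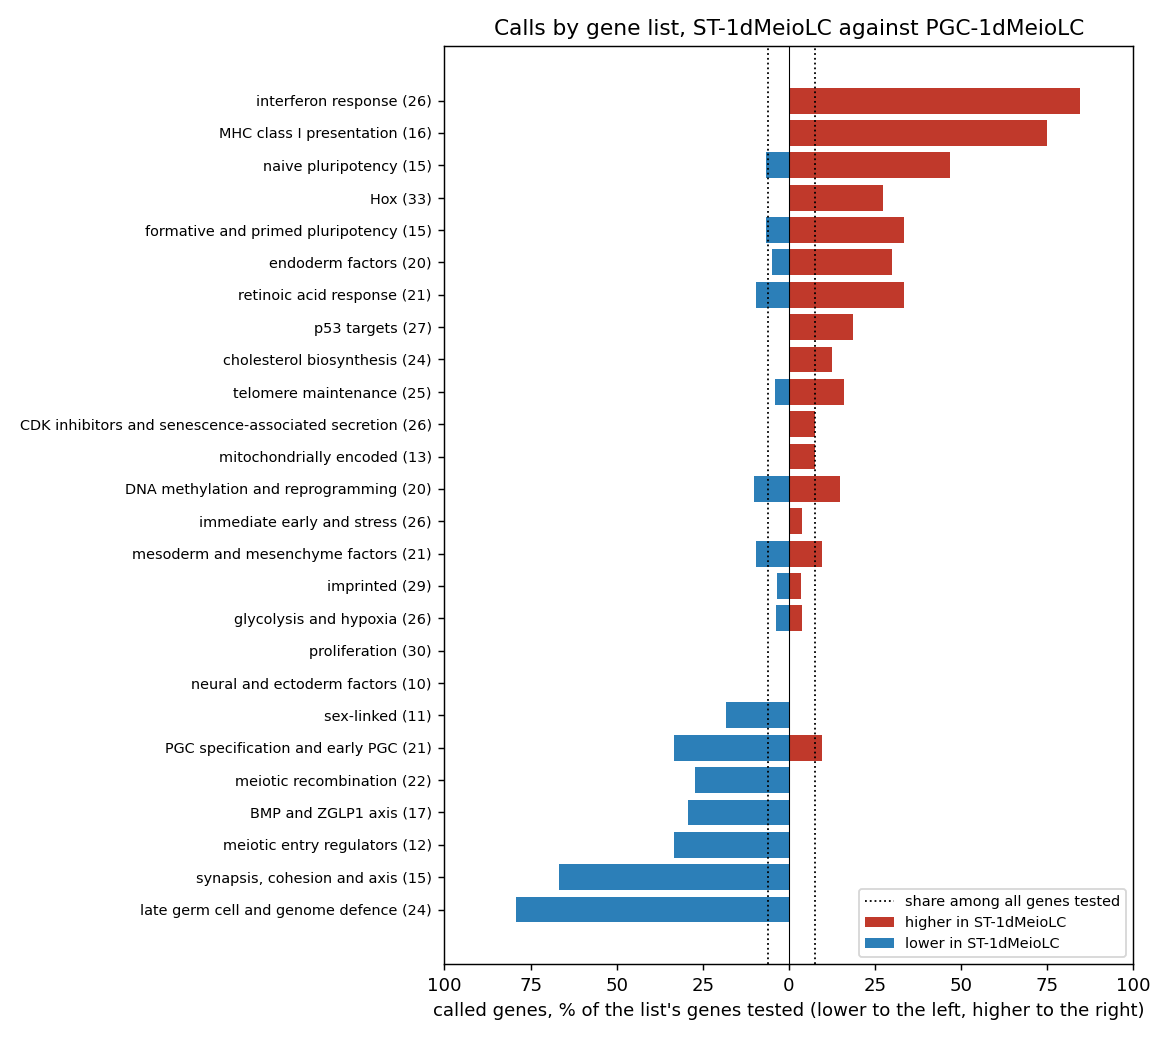
For each gene list (y axis, with the number of genes tested), the percentage called higher in ST-1dMeioLC (red, to the right) and lower (blue, to the left). Dotted lines are the shares among all genes tested, 7.49% higher and 5.98% lower; interferon response (22 of 26) and late germ cell genes (19 of 24) lie at the ends.

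Of 29 imprinted genes tested, 1 was called higher (Sgce) and 1 lower. The lower one was Phlda2, a maternally expressed growth restrictor, with 90.2 and 91.9 TPM in ST-1dMeioLC, against 241 and 253 TPM in PGC-1dMeioLC (log2 change -1.43). H19 had 691 and 695 TPM in ST-1dMeioLC, against 647 and 602 TPM in PGC-1dMeioLC and Mest had 207 and 207 TPM in ST-1dMeioLC, against 168 and 171 TPM in PGC-1dMeioLC, and neither was called. The Sgce call was lost without PGC-1dMeioLC replicate 2 (log2 change 0.96) and after protein-coding scaling or quantile normalization (0.99 in both). Of 20 methylation and reprogramming genes 3 were called higher and 2 lower, with a median log2 change of 0.34. Zfp57, which protects imprints, had 17.5 and 18.7 TPM in ST-1dMeioLC, against 2.97 and 2.30 TPM in PGC-1dMeioLC (log2 change 2.40), and Hells, a chromatin remodeller needed for DNA methylation, had 28.5 and 27.9 TPM in ST-1dMeioLC, against 65.4 and 65.8 TPM in PGC-1dMeioLC (log2 change -1.19).

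Among genes whose higher group averaged 10 TPM or more and whose libraries did not overlap, the lowest changes were led by genes of macrophages and platelets. Pf4 (platelet factor 4) had 6.10 and 4.48 TPM in ST-1dMeioLC, against 261 and 259.8 TPM in PGC-1dMeioLC (log2 change -5.39, SE 0.12, adjusted p 1.4e-09). Marco, a scavenger receptor of macrophages, had 3.88 and 3.35 TPM in ST-1dMeioLC, against 76.96 and 78.5 TPM in PGC-1dMeioLC (log2 change -4.09), and the protease Mmp9 had 0.124 and 0.829 TPM in ST-1dMeioLC, against 20.6 and 24.8 TPM in PGC-1dMeioLC (log2 change -4.04). Wfdc17, Ccl8 and Tff2 were listed at 0 in ST-1dMeioLC, with 39.2 and 44.7, 18.4 and 13.01 and 14.6 and 20.02 TPM in PGC-1dMeioLC. Ctla2a, a protease inhibitor, had 0.209 and 0 TPM in ST-1dMeioLC, against 16.02 and 17.4 TPM in PGC-1dMeioLC. The same rule named 3 short RNA genes, whose TPM rest on short lengths: Mir101a and Mir6769b were listed at 0 in ST-1dMeioLC, and Snora33 had 0 and 2.28 TPM in ST-1dMeioLC, against 37.4 and 30.2 TPM in PGC-1dMeioLC. The Mir6769b call was lost on leaving out any 1 library (adjusted p 0.065 to 0.066). Among macrophage markers, Lyz2, lysozyme, had 15.04 and 16.7 TPM in ST-1dMeioLC, against 235 and 227 TPM in PGC-1dMeioLC (log2 change -3.78), and C1qa, of the complement C1 complex, had 0.846 and 0.282 TPM in ST-1dMeioLC, against 17.4 and 19.6 TPM in PGC-1dMeioLC (log2 change -3.66).

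The highest changes, beside Ifna4 and Ifna2, were in Upp1 (uridine phosphorylase), with 136 and 128 TPM in ST-1dMeioLC, against 1.52 and 3.86 TPM in PGC-1dMeioLC (log2 change 5.25, SE 0.23, adjusted p 1.4e-07), and in 2 further genes of the interferon and MHC groups. Of these Ifi27l2a had 437 and 398 TPM in ST-1dMeioLC, against 15.4 and 17.8 TPM in PGC-1dMeioLC (log2 change 4.57) and H2-Q6 had 37.96 and 37.9 TPM in ST-1dMeioLC, against 0.551 and 1.10 TPM in PGC-1dMeioLC (log2 change 4.43). Eras, a RAS protein of embryonic stem cells, and Gc, the vitamin D-binding protein, had 21.6 and 17.4 TPM and 19.8 and 18.9 TPM in ST-1dMeioLC and were listed at 0 in PGC-1dMeioLC. Rpl29, of the large ribosomal subunit, had 318 and 310.4 TPM in ST-1dMeioLC, against 14.9 and 15.7 TPM in PGC-1dMeioLC (log2 change 4.28). Processed copies of Rpl29 exist in the genome, so its reads may be divided among them. Snord73a and Mir1192, both short, were listed at 0 in PGC-1dMeioLC, with 25.9 and 21.6 TPM and 29.1 and 12.1 TPM in ST-1dMeioLC.

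The other stem cell lines were set against the same PGC-1dMeioLC libraries, so these comparisons share them and their values are given side by side only. LT-1dMeioLC against PGC-1dMeioLC gave 756 higher (3.45%) and 423 lower calls (1.93%), and RT-1dMeioLC against PGC-1dMeioLC gave 960 higher (4.38%) and 642 lower (2.93%). After scaling to protein-coding genes the counts were 548 and 470 for LT-1dMeioLC and 728 and 824 for RT-1dMeioLC, where the median of all genes was -0.12. Of the 24 late germ cell genes tested, 19 were called lower in ST-1dMeioLC, 0 in LT-1dMeioLC and 4 in RT-1dMeioLC (median log2 changes -1.70, -0.15 and -0.64). For the 15 genes of synapsis, cohesion and axis the counts were 10, 0 and 4. Of the 26 interferon response genes, 22 were called higher in ST-1dMeioLC, 23 in LT-1dMeioLC and 17 in RT-1dMeioLC (median log2 changes 2.12, 2.18 and 1.41). For the 16 MHC class I genes these counts were 12, 11 and 8. Higher calls among the 15 naive pluripotency genes were 7, 1 and 4, and lower calls 1, 0 and 0. Among the 15 formative and primed genes tested, 5, 3 and 4 were higher and 1, 2 and 2 lower. The 21 retinoic acid response genes had 7, 1 and 6 higher and 2, 0 and 1 lower.

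Whether the distance of ST-1dMeioLC from the embryonic cells differed from that of LT-1dMeioLC was tested directly as ST-1dMeioLC against LT-1dMeioLC, in which 1027 genes were called higher (4.68%) and 1156 lower (5.27%). Here 19 of 24 late germ cell genes and 8 of 15 genes of synapsis, cohesion and axis were called lower and 0 higher (median log2 changes -1.41 and -1.09). Of the interferon response genes only Isg15 was called higher in ST-1dMeioLC than in LT-1dMeioLC (log2 change 1.39), Mx1 and Dhx58 were lower, and the other 23 were not called. Of the MHC class I genes, Pdia3, a chaperone of their assembly, was called higher and 0 were lower. Of the 15 naive pluripotency genes, 4 were called higher, Nanog among them (log2 change 1.38), and 1 was lower (Tcl1). Macrophage and blood markers had 8 of 17 called lower and 0 higher. For the blood list the lower genes were 7 macrophage markers and the embryonic globin Hbb-bh1.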

How the data were processed

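Per the labels' protocols, total RNA was made into libraries using NEBNext Ultra. The authors deposited 1 table of TPM for 53564 gene symbols, in which each library used adds up to 1000000. Bowtie2, HISAT2, RSEM, R 3.4.2, DESeq2 and mm10 are named in the submitters' processing notes, while what each did, and which version was used, was not given in the sources used here, nor was the use of strand in counting. Depth is unknown from TPM, so values carry no counting interval or floor, and zeros are described as listed at 0.

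Libraries were grouped by column names that match the sample titles (16 libraries in 8 groups of 2). A further 12 columns have names that match no single sample and were not used. The 21935 genes that reached 1 TPM in 2 or more of the 16 libraries were fitted as log2(TPM + 1) with limma 3.58.1 in R 4.3.3, with a mean per group, a trend on mean expression, and 8 residual and 2.23 prior degrees of freedom. Tests were 2-sided, with Benjamini-Hochberg adjustment over all 21935 genes. An exact permutation test of 2 libraries against 2 cannot go below p = 0.333, so none was used. The test was checked on simulated data. Alternatives were a pseudocount of 0.1, no filter on low values, scaling to protein-coding genes, quantile normalization, fits of 4 or 8 libraries (the last chosen after seeing the data), a replicate block, and leaving out each library. Replicate numbers were not taken as pairs, since deviations of same-numbered libraries correlated at -0.01.

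The 31 gene lists (629 symbols, of which 2 were not found and 4 were found under another name) and the genes compared were chosen with earlier results of these data known. The rule for named genes took 19 anchors, up to 4 called genes of each list, and the 10 highest and 10 lowest changes among genes whose higher group averaged 10 TPM or more and whose libraries did not overlap, leaving out Gm and Rik symbols, 124 genes in all. Further genes (such as Ifna6, Ifnb1, Ifnar1, Wt1, Figla, Tdrd7, Mga, Dppa4, Sox3, Pdia3, Mx1, Dhx58 and 2210409E12Rik) were added with their values in view. GENCODE M21 (mm10) gave the coordinates, matched by symbol with 1 record for 53304 of the 53564, and 24 symbols of the table read as dates. Promoters are RefSeq's. Tables and figures were made with Python 3.11.15, pandas 2.3.3 and matplotlib 3.10.9.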

Additional observations from a re-analysis of the deposited data

Results flagged for a closer look

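Among 39 genes screened, 7 were called in ST-1dMeioLC against PGC-1dMeioLC and not in LT-1dMeioLC against PGC-1dMeioLC, and were also called when ST-1dMeioLC was tested directly against LT-1dMeioLC. The flag is that test of the difference between the lines. Ctla2a and Snora33 were named for their large called changes between ST-1dMeioLC and PGC-1dMeioLC, so for them that condition was met by the choice. The share of all tested genes that meet these conditions is not given, so 7 of 39 is not read as an excess. Dppa3 had the largest value, with a log2 change of -4.11 (ST-1dMeioLC minus LT-1dMeioLC), from 27.6 and 29.6 TPM in ST-1dMeioLC and 524 and 495 TPM in LT-1dMeioLC. Ddx4 differed by -2.38 and Dazl by -2.02 on the same scale. Stra8 had 336 and 323 TPM in ST-1dMeioLC and 845 and 858 TPM in LT-1dMeioLC, a log2 change of -1.37, and Sycp3 differed by -1.36. Ctla2a had 0.209 and 0 TPM in ST-1dMeioLC and 12.6 and 12.8 TPM in LT-1dMeioLC, a log2 change of -3.64. Snora33, a short RNA whose TPM is unstable, differed by -2.98. The summed germ cell markers were at 302 and 309 TPM in ST-1dMeioLC and 1382 and 1349.6 TPM in LT-1dMeioLC. Dppa3, Ddx4, Dazl and Sycp3 are themselves in that sum, so it is not separate evidence. The part of germ cell content in these differences was not tested.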

How the results depend on the processing

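With a pseudocount of 0.1 in place of 1, 2021 genes were called lower in ST-1dMeioLC than in PGC-1dMeioLC (main 1312), 1043 lower in RT-1dMeioLC than in PGC-1dMeioLC (main 642) and 1815 lower in ST-1dMeioLC than in LT-1dMeioLC (main 1156). Of the main ST-1dMeioLC calls 1525 of 1644 higher and 1220 of 1312 lower were also made at that pseudocount. Leaving out 1 library gave 1580 to 1715 higher and 1219 to 1327 lower calls, of which the share of the main calls also made was 82.1% to 85.1% (higher) and 77.9% to 82.5% (lower). The replicate block gave 1640 higher and 1304 lower calls and changed no call of the 124 named genes; replicate numbers do not pair the libraries. Scaling to protein-coding genes gave 1422 higher and 1298 lower. The gonadal somatic markers called higher (main 2) were 4 at a pseudocount of 0.1, 1 after scaling to protein-coding genes, 1 after quantile normalization and 1 to 3 on leaving out 1 library. Over all alternatives the called counts ranged from 17 to 19 for late germ cell genes lower (main 19), 7 to 11 for synapsis, cohesion and axis genes lower (main 10), 21 to 23 for interferon response genes higher (main 22) and 12 to 14 for MHC class I genes higher (main 12). Scaling moved the higher share of calls from LT-1dMeioLC to 53.8% (main 64.1%) and from RT-1dMeioLC to 46.9% (main 59.9%). No direction of a named gene turned. The causes of these moves were not tested. Depth is unknown, so low genes, such as most recombination genes, rest on few reads at an unknown number, and 2 libraries per group limit every test.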

Other observations

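X-linked genes were lower in ST-1dMeioLC more often than the whole set. Of 849 X-linked genes tested, 122 were called lower (14.4%) and 42 higher (4.95%), against 5.98% and 7.49% of all genes. Of the 122, 89 were protein-coding. The Rhox family of reproductive homeobox genes had 22 of 33 called lower and 0 higher. The Mage family, many of whose members are expressed in the germline, had 9 of 19 called lower, and the Xlr family had 5 of 13. Members of these families are near copies, so their counts are not independent. Of 17 Y-linked genes tested, 3 were called lower (17.6%) and 1 higher (5.88%), against 5.98% and 7.49% of all genes. Eif2s3y had 5.28 and 5.15 TPM in ST-1dMeioLC, against 21.6 and 24.1 TPM in PGC-1dMeioLC (log2 change -1.94). Zfy2 had 0.142 and 0.378 TPM in ST-1dMeioLC, against 2.22 and 3.25 TPM in PGC-1dMeioLC (log2 change -1.56). Ddx3y had 4.65 and 5.25 TPM in ST-1dMeioLC, against 7.996 and 8.25 TPM in PGC-1dMeioLC (log2 change -0.62) and was not called. The long noncoding RNA Xist had 8.39 and 8.86 TPM in ST-1dMeioLC, against 7.59 and 7.47 TPM in PGC-1dMeioLC (log2 change 0.17, adjusted p 0.17), and reads of its antisense partner Tsix cannot be told apart without strand.

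Of 20 genes on the endoderm list, 6 were called higher in ST-1dMeioLC and 1 lower (Apoa1, a call lost without ST-1dMeioLC replicate 1 or PGC-1dMeioLC replicate 2). Leaving out 1 library gave 4 to 7 higher calls. Krt18, a keratin of simple epithelia, had 108 and 106 TPM in ST-1dMeioLC, against 30.5 and 39.1 TPM in PGC-1dMeioLC (log2 change 1.60), and Cdh1 (E-cadherin) had 17.98 and 18.5 TPM in ST-1dMeioLC, against 6.23 and 6.07 TPM in PGC-1dMeioLC (log2 change 1.43). The endoderm factor Sox17 had 0.0922 and 0.246 TPM in ST-1dMeioLC, against 0.433 and 0.336 TPM in PGC-1dMeioLC and was not called. The glucose transporter Slc2a3 had 26.3 and 27.3 TPM in ST-1dMeioLC, against 6.53 and 6.04 TPM in PGC-1dMeioLC (log2 change 1.93). Over the 26 glycolysis and hypoxia genes tested, 1 was called higher and 1 lower, with a median log2 change of -0.006. Of all 37 genes tested on the mitochondrial chromosome, 7 were called lower (18.9%) and 2 higher (5.41%), with a median log2 change of -0.63. Of its 13 protein-coding genes only mt-Nd4l was called, with 145 and 194 TPM in ST-1dMeioLC, against 22.4 and 16.98 TPM in PGC-1dMeioLC (log2 change 3.04), and it overlaps mt-Nd4. The unnamed gene 2210409E12Rik had 431 and 437 TPM in ST-1dMeioLC, 44.9 and 48.96 TPM in LT-1dMeioLC, 323 and 306 TPM in RT-1dMeioLC and 0 and 0.663 TPM in PGC-1dMeioLC.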
